A study of Mus musculus with 12 samples.

Results

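Arginine metabolism was followed through 10 genes, which were Slc7a1, Slc7a2, Ass1, Asl, Arg1, Arg2, Nos2, Odc1, Sms and Oat, out of 35999 gene rows, of which 17940 had enough counts to be tested. The genes were chosen by name for their place in the pathway after results of the comparison described here were known, and Arg1 was among the genes that had differed in it. Their differences between the treatments were therefore used in the choice and are given as descriptions. All 10 genes had enough counts to be tested.

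The RNA came from subcutaneous growths of AB1-HA, a mouse mesothelioma cell line, in male BALB/c mice aged 8 to 10 weeks. A total of 6 tumours came from mice given PBS, and another 6 came from mice given 100 µg of a monoclonal antibody against CD4, on days -3, 0 and 7 counted from inoculation. All tumours were excised on day 9. The antibody removes CD4 T cells, and the comparison asks how tumours that grew without these cells differ from tumours that grew with them.

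Levels are given in CPM, a gene's estimated counts as parts of the scaled total of its library, set to 1000000. Libraries held 30.7 to 41.9 M counts in PBS tumours and 34.5 to 62.1 M in anti-CD4 tumours, so that depth moved with treatment. Cd4 itself ran from 4.35 to 9.93 CPM in PBS tumours and from 0.618 to 2.13 CPM in anti-CD4 tumours, with no overlap. The 7 mesothelial tumour cell markers summed to 125.6 to 172.9 CPM with PBS and 133.1 to 199.4 CPM with anti-CD4. Most of that was Msln, the defining one, while Upk3b, Krt18 and Krt19 were too low to be tested. Pdpn, a membrane glycoprotein that fibroblasts and lymphatic endothelium also make, rose from 27.2 ± 2.16 to 34.2 ± 1.81 CPM (SD, n = 6 each, edgeR adjusted p = 0.0186). In bulk tissue, fewer cells of a type and less RNA per cell cannot be told apart. No label ties a tumour to its own mouse, so p-values measure the spread between these samples.

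Arginine enters cells mainly through cationic amino acid transporters and is then taken by competing enzymes. Arginases split it into urea and ornithine, while inducible nitric oxide synthase turns it into nitric oxide and citrulline, from which argininosuccinate synthase and lyase can rebuild arginine. Ornithine feeds the polyamines through ornithine decarboxylase, or proline and glutamate through ornithine aminotransferase. In mouse myeloid cells, arginase 1 is widely used as a marker of alternative activation and inducible nitric oxide synthase as a marker of activation by interferon gamma, and local loss of arginine is known to limit T cell proliferation.

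Arg1 and Arg2 both encode arginases, so it matters for the values below whether their reads could be confused. The stretches shown hold the longest run of identical bases in their aligned coding sequences, set in capitals. They are 90 bases each, read 5′ to 3′ on the coding strand from GENCODE M21 transcripts on GRCm38.
Arg1: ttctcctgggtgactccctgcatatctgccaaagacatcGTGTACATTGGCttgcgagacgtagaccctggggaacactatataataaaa
Arg2: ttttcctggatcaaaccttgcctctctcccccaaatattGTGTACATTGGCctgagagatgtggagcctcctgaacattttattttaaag

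The Arg1 stretch covers coding bases 484 to 573, at chr10:24916447-24916851 on the minus strand, and the Arg2 stretch covers coding bases 541 to 630, at chr12:79150750-79150965 on the plus strand. Each span holds intronic bases that are not printed. The coding sequences of Arg1 (969 bases) and Arg2 (1062 bases) were 62.6% identical over 968 aligned bases, with a longest identical run of 12 bases. Their annotated transcripts shared no stretch of 31 bases.

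Among the 10 genes, Arg1, the cytosolic arginase, differed most. Its mean level in anti-CD4 tumours was 22.9% of that in PBS tumours. Of the 10 genes, edgeR's quasi-likelihood test called 1, Arg1, as lower and 0 as higher, while DESeq2 called Odc1 as well, as higher. Across all tested genes, edgeR called 5.28%, 2.33% lower and 2.95% higher, or 418 and 529 genes. With upper quartile scaling that split turned to 325 lower and 179 higher. DESeq2 called 1157 lower and 1337 higher of the 17940 tested genes, and limma voom 3200 lower and 2848 higher. At an unadjusted p under 0.05 edgeR had 5027 genes. Counts given below for single lists are to be set against these. The 10 genes had a median log2 fold change of -0.06, with 3 values above 0 and 7 below, while the median over all tested genes was 0.00. Nothing is read from the count, since the same comparison led to the choice of genes. The levels of 2 genes, Arg1 and Odc1, did not overlap between the groups, against 3.12% of all tested genes.

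**Figure D1:**
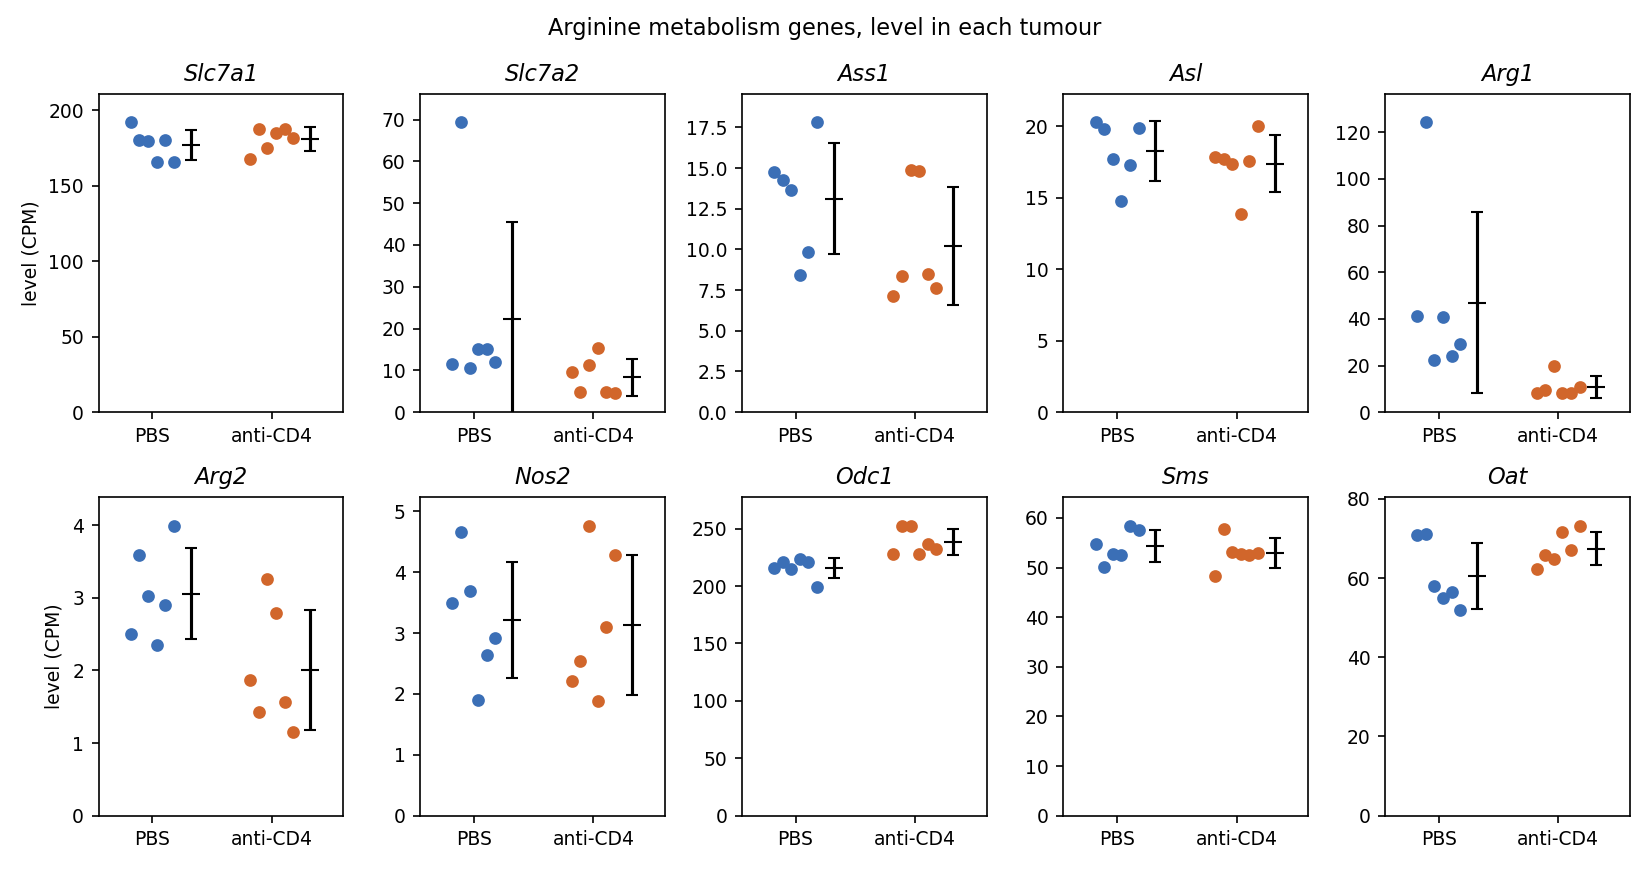
Level in CPM (y axis, from 0) of each of the 10 genes in the 6 PBS tumours (blue) and the 6 anti-CD4 tumours (orange), with the mean and SD in black beside the points and the lower bar for Slc7a2 in PBS cut at 0. Arg1 in anti-CD4 tumours lies between 8.01 and 19.9 CPM, below every PBS tumour, and PBS tumour 2 stands far above the rest in Arg1 and Slc7a2.

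Uptake was described by 2 transporters. Slc7a1, at chr5:148327410-148399904 on the minus strand, encodes CAT-1, the widely expressed cationic amino acid transporter. Its lowest, median and highest levels were 165.5, 179.7 and 192.0 CPM in PBS tumours and 167.8, 183.3 and 187.8 CPM in anti-CD4 tumours. The anti-CD4 tumours lay wholly inside the range of the PBS tumours, and the log2 fold change was 0.03 (SE 0.05).

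Slc7a2, at chr8:40862396-40922308 on the plus strand, encodes CAT-2, a transporter that macrophages induce on activation. In PBS tumours 1 to 6 its levels were 11.6, 69.3, 10.6, 15.1, 15.2 and 11.995 CPM. In anti-CD4 tumours 1 to 6 they were 9.54, 4.72, 11.4, 15.3, 4.72 and 4.54 CPM. PBS tumour 2 stood far above every other tumour, and 4 of the 6 anti-CD4 tumours, all but 3 and 4, were below every PBS tumour. Slc7a2 had a log2 fold change of -1.42 (SE 0.56), and without PBS tumour 2 it was -0.63 (SE 0.31). Of the 31-base stretches in its transcripts, 8.78% also occur in other genes' transcripts, most of them in Gm26584, a long non-coding RNA on the opposite strand.

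Set against transcript length, Slc7a2 was a small part of this transport pair. Per kilobase of the longest coding transcript, it had a lowest, median and highest level of 5.38%, 7.12% and 34.9% of Slc7a1 in PBS tumours. In anti-CD4 tumours it had 2.27%, 3.72% and 7.51%. The groups overlapped in this share, and the highest value was PBS tumour 2.

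Arginine synthesis from citrulline runs through Ass1 and Asl. Ass1, at chr2:31470207-31520672 on the plus strand, encodes argininosuccinate synthase. In PBS tumours 1 to 6 it stood at 14.7, 14.3, 13.6, 8.44, 9.84 and 17.8 CPM. In anti-CD4 tumours 1 to 6 it stood at 7.15, 8.35, 14.9, 14.8, 8.50 and 7.63 CPM. Anti-CD4 tumours 3 and 4 were at the level of the upper PBS tumours, and the other anti-CD4 tumours were at 7.15 to 8.50 CPM, beside or below the lowest PBS tumour. For Ass1 the log2 fold change was -0.36 (SE 0.23), and without both anti-CD4 tumours 3 and 4 it was -0.73 (SE 0.18). Those tumours had the highest anti-CD4 values of Ass1, so leaving them out had to lower it, and nothing is read from that fall. With muscle and adipocyte scores in the fit of all tumours, the log2 fold change was -0.23. Of the 31-base stretches of Ass1, 43.1% also occur in the annotated copy Gm5424, to which at most 0.0491 CPM was assigned in any tumour.

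Asl, at chr5:130011258-130029247 on the minus strand, encodes argininosuccinate lyase, which releases arginine from the product of Ass1. Its lowest, median and highest levels were 14.8, 18.7 and 20.3 CPM with PBS and 13.9, 17.6 and 20.02 CPM with anti-CD4. The ranges nearly coincided, and the log2 fold change was -0.07 (SE 0.09).

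Arg1, at chr10:24915221-24927484 on the minus strand, shares no 31-base stretch with the transcripts of another gene. In PBS tumours 1 to 6 it was measured at 41.2, 124.2, 22.4, 40.7, 24.2 and 29.2 CPM. In anti-CD4 tumours 1 to 6 it was measured at 8.01, 9.42, 19.9, 8.42, 8.20 and 10.7 CPM. Of the anti-CD4 tumours, 5 sat within 8.01 to 10.7 CPM, and tumour 3 approached the lowest PBS tumour. The means were 47.0 ± 38.7 CPM with PBS and 10.8 ± 4.58 CPM with anti-CD4 (SD, n = 6 each).

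The log2 fold change of Arg1 was -2.13 (SE 0.46), and its size rested partly on PBS tumour 2. Without that tumour it was -1.55 (SE 0.27), and Arg1 was still called. Arg1 was called without each of PBS tumours 1, 2, 4 and 5 and anti-CD4 tumours 1 and 3, where the value ran from -2.38 to -1.55. It was not called without PBS tumour 3 (-2.27) or 6 (-2.23), or without anti-CD4 tumour 2 (-2.09), 4 (-2.06), 5 (-2.06) or 6 (-2.12), although the value hardly moved. When the log2 library total entered the fit, the value was -1.96 and Arg1 was not called. Since depth moved with treatment, their parts in the difference cannot be told apart.

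Arg2, at chr12:79130777-79156301 on the plus strand, encodes the mitochondrial arginase. In PBS tumours 1 to 6 it had levels of 2.50, 3.58, 3.03, 2.34, 2.90 and 3.99 CPM. In anti-CD4 tumours 1 to 6 it had levels of 1.87, 1.43, 3.25, 2.79, 1.57 and 1.16 CPM. As for Slc7a2 and Ass1, the anti-CD4 tumours 3 and 4 were at PBS levels. The other 4 were below every PBS tumour in Arg2, as in Slc7a2, while in Ass1 not all of them were. Arg2 had a log2 fold change of -0.61 (SE 0.25). Without both anti-CD4 tumours 3 and 4, which had its highest anti-CD4 values, it was -1.03 (SE 0.21), a fall that leaving them out had to give. Of its 31-base stretches, 23.6% are shared with Vti1b and Gm48780, which overlap it on the opposite strand, and Vti1b had 30.9 ± 2.73 CPM with PBS and 32.6 ± 1.77 CPM with anti-CD4 (SD, n = 6 each).

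Nos2, at chr11:78920787-78960254 on the plus strand, encodes inducible nitric oxide synthase and shares no 31-base stretch with other genes. In PBS tumours 1 to 6 it reached 3.49, 4.66, 3.69, 1.91, 2.64 and 2.92 CPM. In anti-CD4 tumours 1 to 6 it reached 2.22, 2.54, 4.76, 1.89, 3.10 and 4.28 CPM. Both groups covered nearly the same range, from 1.91 to 4.66 CPM and from 1.89 to 4.76 CPM. Its log2 fold change was -0.04 (SE 0.25), which turned to 0.10 without PBS tumour 2 and stayed within 0.18 of 0 when any other tumour was left out.

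**Figure D2:**
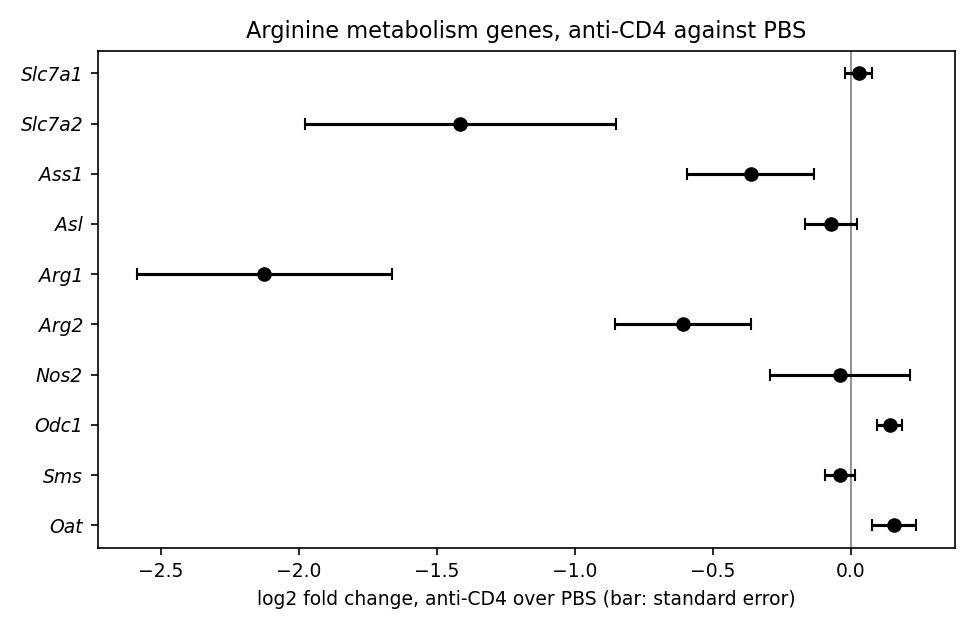
Log2 fold change of anti-CD4 over PBS (x axis) for the 10 genes in order of their role, with the standard error as a bar and a vertical line at 0. Arg1 (-2.13) and Slc7a2 (-1.42) have the lowest values and the widest bars, while Slc7a1, Asl, Nos2 and Sms lie within 0.07 of 0.

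The balance of the enzymes that compete for arginine was taken per kilobase of transcript. The ratio of Arg1 to Nos2 had a lowest, median and highest value of 17.2, 30.998 and 75.7 in PBS tumours and 7.11, 10.4 and 12.6 in anti-CD4 tumours. The ranges did not overlap, and Arg1 exceeded Nos2 in every tumour. The ratio of Arg1 to Arg2 was 7.08, 11.98 and 33.5 with PBS and 2.92, 5.48 and 8.97 with anti-CD4, with overlap. Both ratios contain Arg1, so they are further descriptions of the same difference.

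Polyamine synthesis starts from ornithine at Odc1, at chr12:17544794-17551505 on the plus strand, which encodes ornithine decarboxylase. In PBS tumours its lowest, median and highest levels were 198.8, 218.3 and 223.3 CPM. In anti-CD4 tumours they were 227.8, 234.2 and 252.3 CPM. Every anti-CD4 tumour was above every PBS tumour, but the distance was small, with a log2 fold change of 0.14 (SE 0.05) that was not called by edgeR. Annotated copies share 31.3% of the 31-base stretches of Odc1, and the copy with most of them, Gm7993, was assigned 10.0 ± 1.29 CPM with PBS and 10.5 ± 1.02 CPM with anti-CD4 (SD, n = 6 each).

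Sms, at chrX:157443855-157492287 on the minus strand, encodes spermine synthase, which makes spermine from spermidine. Its lowest, median and highest levels were 50.01, 53.8 and 58.4 CPM with PBS and 48.3, 52.8 and 57.8 CPM with anti-CD4. The groups overlapped almost fully, with a log2 fold change of -0.04 (SE 0.05). The copy Sms-ps shares most of the 18.8% of Sms stretches found elsewhere, and it had 8.92 ± 1.59 CPM with PBS and 12.04 ± 1.74 CPM with anti-CD4 (SD, n = 6 each), so reads divided between them could move both values.

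Oat, at chr7:132557478-132576398 on the minus strand, encodes ornithine aminotransferase, the mitochondrial enzyme on the way from ornithine to proline and glutamate. In PBS tumours 1 to 6 it was present at 70.8, 71.0, 58.1, 55.0, 56.5 and 51.9 CPM. In anti-CD4 tumours 1 to 6 it was present at 62.2, 65.9, 64.7, 71.5, 67.1 and 73.1 CPM. PBS tumours 1 and 2 were among the highest of all 12, and the other 4 PBS tumours were below every anti-CD4 tumour. The log2 fold change was 0.16 (SE 0.08), and it was 0.03 (SE 0.09) when the log2 library total entered the fit. Oat overlaps Fgfr2 on the same strand, and Fgfr2 had 585.6 ± 64.9 CPM with PBS and 671.3 ± 32.2 CPM with anti-CD4 (SD, n = 6 each).

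Compared per kilobase of the longest coding transcript, Odc1 had the highest level of the 10 genes in PBS tumours, at 97.7 ± 4.03 CPM per kilobase. Arg1 was next at 31.8 ± 26.2, and it could not be set apart by its spread from Oat at 28.1 ± 3.85 or Slc7a1 at 24.7 ± 1.40. Sms followed at 14.6 ± 0.86, above Ass1 at 7.74 ± 2.02 and Asl at 7.57 ± 0.88, which did not differ beyond their spread. The lowest were Slc7a2 at 2.82 ± 2.92, Arg2 at 2.14 ± 0.44 and Nos2 at 0.767 ± 0.226 CPM per kilobase (SD, n = 6 for each gene). Slc7a2 and Arg2 overlapped in their spread.

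In anti-CD4 tumours the order began with Odc1 at 107.8 ± 5.13, Oat at 31.3 ± 1.94, Slc7a1 at 25.2 ± 1.105 and Sms at 14.2 ± 0.81 CPM per kilobase. Arg1 stood at 7.30 ± 3.10, at the level of Asl (7.21 ± 0.82) and Ass1 (6.02 ± 2.13), which did not differ from it beyond their spread. Arg2 (1.41 ± 0.58), Slc7a2 (1.06 ± 0.56) and Nos2 (0.747 ± 0.276) were again lowest, with overlapping spreads (SD, n = 6 for each gene). With the median transcript length in place of the longest, Ass1 and Asl in PBS tumours and Arg2 and Slc7a2 in anti-CD4 tumours changed places. Arg1 went from place 2 with PBS to place 5 with anti-CD4, or 6 with the median length.

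Variation among tumours of one group was uneven across the genes. In PBS tumours the coefficient of variation was 104% for Slc7a2 and 82.3% for Arg1, against 4.12% for Odc1. In anti-CD4 tumours it was 53.4%, 42.5% and 4.76%. After the group means were subtracted, the log2 levels of Arg1 over the 12 tumours were set against each of the other 9 genes. No relation passed a two-sided permutation test within groups, with Pearson's r from -0.38 to 0.70, a lowest Benjamini-Hochberg adjusted p of 0.287 for r and 0.623 for Spearman's rho, and no unadjusted p under 0.05 for either.

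The highest of these values was that of Arg1 with Slc7a2, at r = 0.70 (permutation p = 0.0599, adjusted p = 0.287) and rho = 0.23 (permutation p = 0.519). It was 0.91 among PBS tumours and 0.21 among anti-CD4 tumours. Without PBS tumour 2 and anti-CD4 tumour 3, which lay farthest from the median of Arg1, it was -0.15, so it rested on those tumours. Arg1 with Nos2 gave r = 0.55 (permutation p = 0.0637, adjusted p = 0.287) and rho = 0.49 (permutation p = 0.141), and -0.01 without the same tumours. Without PBS tumour 4 alone, Arg1 with Nos2 had r = 0.66 and passed (permutation adjusted p = 0.0461), while rho did not (permutation adjusted p = 0.546).

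**Figure D3:**
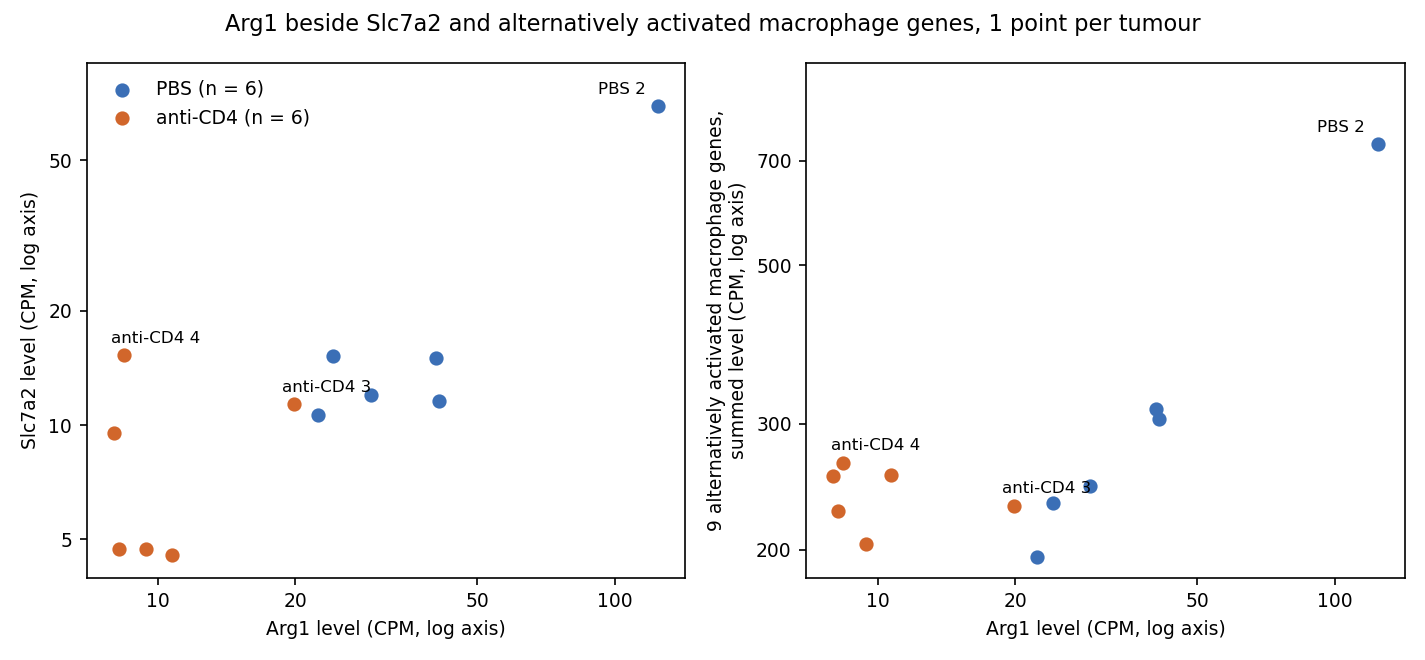
Level of Arg1 (x axis, CPM, log axis) against Slc7a2 (left, CPM, log axis) and against the summed level of 9 genes of alternatively activated macrophages (right, CPM, log axis), 1 point per tumour, PBS in blue and anti-CD4 in orange. PBS tumour 2 (Arg1 124.2, Slc7a2 69.3, sum 738.0 CPM) lies apart in both panels, and the other 11 tumours lie in a narrow band of the sum, from 195.1 to 314.2 CPM. Mrc1 makes up most of the sum in every tumour.

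Genes that mark alternatively activated macrophages, a list of 9 of which 8 were tested, had 0 called by edgeR (2 at an unadjusted p under 0.05, and 1 by DESeq2 and by limma voom), with a median log2 fold change of -0.41 against 0.00 for all tested genes. Their summed level was 304.9, 738.0, 195.1, 314.2, 232.3 and 245.8 CPM in PBS tumours 1 to 6. It was 253.2, 203.3, 230.4, 264.8, 226.7 and 254.0 CPM in anti-CD4 tumours 1 to 6. Most of the sum in every tumour was Mrc1, at 163.5 to 562.8 CPM with PBS and 172.0 to 217.5 CPM with anti-CD4, so the sum mainly follows that gene. PBS tumour 2 was the only one above the others by far, and apart from it the groups overlapped. In that tumour Mrc1, the mannose receptor, was at 562.8 CPM, Mgl2 at 40.4 CPM, and Chil3, a secreted chitinase-like protein, at 7.20 CPM. Cd163, Retnla, Ccl17 and Pdcd1lg2 were also highest there among the PBS tumours, but Clec10a, at 4.43 CPM, was below PBS tumours 4 and 5, and Ccl24, at 1.69 CPM, was second lowest.

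Pdcd1lg2, which encodes the checkpoint ligand PD-L2, had 3.11 ± 2.62 CPM with PBS, from 1.34 to 8.38, and 0.657 ± 0.591 CPM with anti-CD4, from 0.136 to 1.56 (SD, n = 6 each). Its log2 fold change of -2.26 (SE 0.65) had an edgeR adjusted p of 0.059. Mgl2, a lectin of macrophages and dendritic cells, had a log2 fold change of -1.11 (edgeR adjusted p = 0.131). Neither passed edgeR's test with all tumours. DESeq2 and limma voom called Pdcd1lg2, as did edgeR without PBS tumour 1 (-2.40), without anti-CD4 tumour 3 (-2.72) and without both anti-CD4 tumours 3 and 4 (-3.42). Anti-CD4 tumours 3 and 4 had the highest Pdcd1lg2 of their group, 1.56 and 1.17 CPM, so leaving them out had to lower its value. Mgl2 was at -0.58 without PBS tumour 2.

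General markers of macrophages and monocytes overlapped between the groups. The 10 genes summed to 1433 to 2141 CPM in PBS tumours and 1403 to 1722 CPM in anti-CD4 tumours, with medians of 1643 and 1576 CPM, and edgeR called 0 of the 10 (1 at an unadjusted p under 0.05, 0 by DESeq2 and 2 by limma voom). Their median log2 fold change was -0.21 against 0.00 for all tested genes, with 3 values above 0 and 7 below. Lyz2 alone had means of 857.8 CPM with PBS and 826.5 CPM with anti-CD4, the largest part of the sum. Arg1 amounted to 1.43%, 1.99% and 5.802% of this sum (lowest, median and highest) with PBS and to 0.489%, 0.612% and 1.26% with anti-CD4. The ranges of that share did not overlap, but the share contains Arg1 and is a further description of the same difference.

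Other cell types moved with treatment, and their part in the result for Arg1 was not tested. The calls given for them are edgeR's, against 2.33% lower and 2.95% higher over all tested genes. Over the 17940 tested genes DESeq2 called 1157 lower and 1337 higher, and limma voom 3200 lower and 2848 higher. The 8 dendritic cell markers summed to 47.3 to 73.7 CPM with PBS and 22.7 to 36.5 CPM with anti-CD4, and 5 of them were called lower (5 by DESeq2 and 5 by limma voom). The 7 T cell markers summed to 25.4 to 53.2 CPM with PBS and 6.61 to 29.9 CPM with anti-CD4, with 3 called lower (4 by DESeq2 and 7 by limma voom). The 7 fibroblast markers summed to 14865 to 27078 CPM with PBS and 26849 to 34277 CPM with anti-CD4, with 2 called higher (5 by DESeq2 and 6 by limma voom). Most of that sum was Col3a1, Col1a1 and Col1a2, none of which edgeR called. Its 2 calls were Lum and Pdgfra, at means of 63.7 and 603.2 CPM with anti-CD4.

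Neutrophil markers were low. The 8 genes summed to 16.4 to 30.99 CPM with PBS and 9.19 to 30.9 CPM with anti-CD4, and the highest anti-CD4 values, 30.9 and 26.1 CPM, were those of tumours 3 and 4. Most of the sum was Csf3r, at means of 14.1 and 9.74 CPM with PBS and anti-CD4, and Cxcr2, at 6.71 and 6.22 CPM. Only 4 of the 8 genes had enough counts to be tested. Ly6g, their defining surface marker, had no count in any PBS tumour and 5 counts in all over the anti-CD4 tumours. Anti-CD4 tumours 3 and 4 are those whose Ass1, Arg2 and Slc7a2 were at PBS levels, and their T cell markers, at 21.7 and 29.9 CPM against 6.61 to 13.5 CPM in the other anti-CD4 tumours, also stood apart. Their dendritic cell markers, at 33.6 and 36.5 CPM, were the highest of the group, with anti-CD4 tumour 1 close by at 33.3 CPM. The part of any of these cells in the values of Ass1, Arg2 and Slc7a2 was not tested. Hepatocyte markers, which would bring in the liver form of the pathway, summed to 0.758 to 1.97 CPM with PBS and 0.430 to 3.26 CPM with anti-CD4. Markers of eosinophils (3.85 to 6.36 and 3.79 to 5.91 CPM), endothelial cells (143.9 to 190.3 and 126.7 to 256.3 CPM), keratinocytes (0.691 to 1.496 and 1.04 to 1.47 CPM), skeletal muscle (157 to 1268 and 255 to 1293 CPM) and adipocytes (36.0 to 144.5 and 2.24 to 243.9 CPM) overlapped between PBS and anti-CD4. Within groups, Arg1 and Nos2 were set against the mean level of each of the 12 marker lists. Of these 24 relations, none passed a two-sided permutation test after adjustment (lowest adjusted p 0.468 for r and 0.295 for rho), with unadjusted p under 0.05 for 1 by r and 3 by rho.

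Beyond the 10 genes, 106 genes of 10 lists around arginine were examined and 97 could be tested. Of these, edgeR called 0 higher and 2 lower, against 2.95% and 2.33% of all tested genes. At an unadjusted p under 0.05 there were 21, and DESeq2 called 3 higher and 7 lower, limma voom 10 higher and 11 lower. Over all 17940 tested genes, edgeR had 5027 at an unadjusted p under 0.05. Over the same 17940 genes, DESeq2 called 1337 higher and 1157 lower, and limma voom 2848 higher and 3200 lower. Of the 97 pathway genes, 49 had values above 0 and 48 below, with a median log2 fold change of 0.00. These counts moved with the tumours included: 8 were called without PBS tumour 1, 4 without PBS tumour 4 or anti-CD4 tumour 1, 1 without PBS tumour 5, and 0 without PBS tumour 2 or 6 or anti-CD4 tumour 2, 5 or 6.

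**Figure D4:**
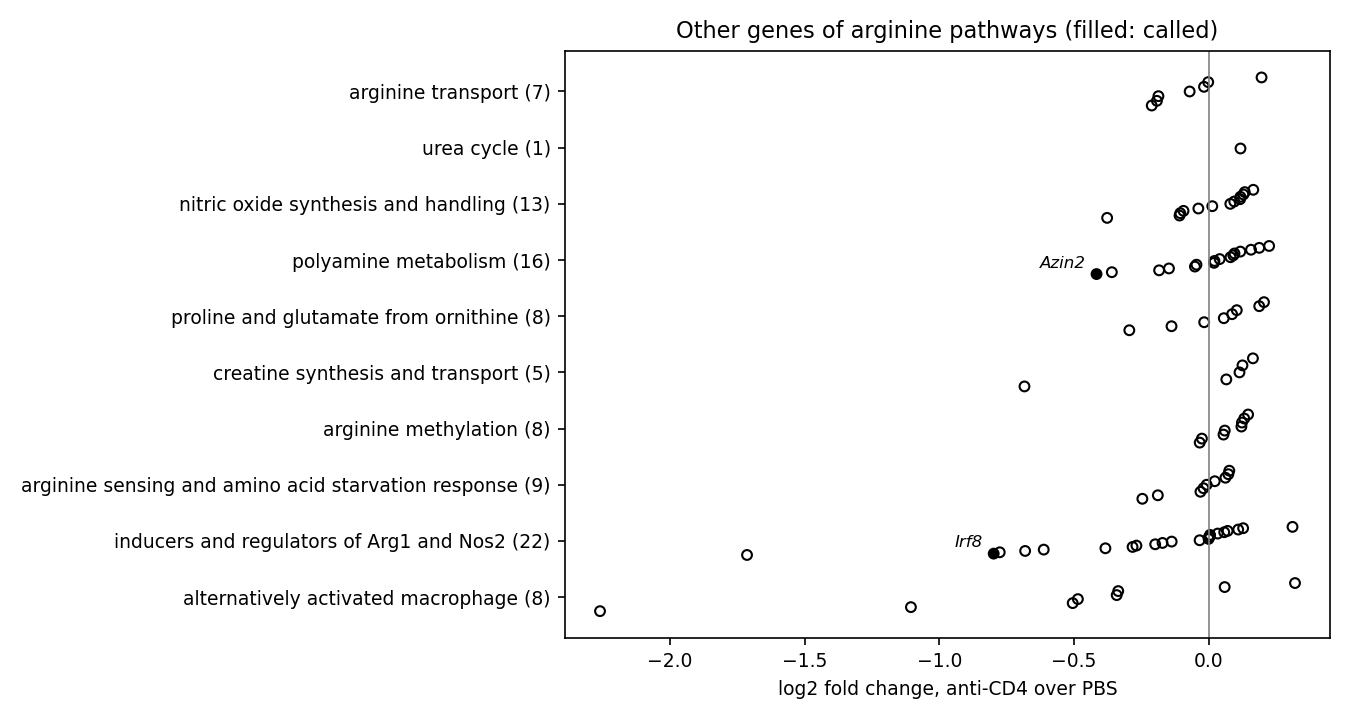
Log2 fold change of anti-CD4 over PBS (x axis) of the 97 tested genes in 10 lists around arginine metabolism, 1 circle per gene, with the number tested in brackets and filled circles for genes called by edgeR. Only Azin2 (-0.42) and Irf8 (-0.80) are filled, and most circles lie near 0.

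Of 8 further arginine transport genes, 7 were tested and edgeR called 0 (1 at an unadjusted p under 0.05, 0 by DESeq2, 2 by limma voom), with a median of -0.07. Slc25a15, the mitochondrial ornithine carrier, had 0.20 (SE 0.08, edgeR adjusted p = 0.121), and Slc38a9, the lysosomal arginine sensor, had -0.19 (edgeR adjusted p = 0.209). Of the urea cycle only Slc25a13, the aspartate and glutamate carrier, had enough counts, at 0.12 (edgeR adjusted p = 0.36). The liver enzymes Cps1, Otc and Nags were below the limit for testing, and Otc had no count in any tumour.

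Nitric oxide synthesis and handling was represented by 13 other genes, all tested and 0 called by edgeR (2 at an unadjusted p under 0.05, 0 by DESeq2, 2 by limma voom), with a median of 0.08. The other synthases were present, Nos1 at 6.33 and 5.92 CPM and Nos3, the endothelial form, at 8.22 and 7.61 CPM (means with PBS and anti-CD4). Qdpr, which regenerates the cofactor of the synthases, had a log2 fold change of 0.17 (edgeR adjusted p = 0.125), and Nostrin, which binds the endothelial form, had -0.38 (edgeR adjusted p = 0.145).

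Of 17 polyamine genes, 16 were tested, and edgeR called 0 higher and 1 lower (6 at an unadjusted p under 0.05). DESeq2 called 2 higher and 2 lower, and limma voom 3 higher and 1 lower. The gene called by edgeR was lower in anti-CD4 tumours, while 10 of the 16 values were above 0 and 6 below. The gene called by edgeR was Azin2, an antizyme inhibitor that protects ornithine decarboxylase from antizyme. It fell from 28.6 ± 4.25 CPM, with a range of 23.9 to 34.6, to 21.4 ± 2.14 CPM, with a range of 18.4 to 23.8 (SD, n = 6 each). The groups did not overlap, with a value of -0.42 on the log2 scale (SE 0.10, edgeR adjusted p = 0.0335). Paox, which oxidises acetylated polyamines, had -0.36 (SE 0.11, edgeR adjusted p = 0.0687) and did not pass edgeR's test, while DESeq2 called it and limma voom did not. Azin1, at means of 241.7 CPM with PBS and 275.3 CPM with anti-CD4, had 0.19 (SE 0.06, edgeR adjusted p = 0.0732). Oaz1 had 0.22 (SE 0.08, edgeR adjusted p = 0.0965). DESeq2 and limma voom called both as higher, as did edgeR without PBS tumour 1. Limma voom also called Eif5a, at 0.16 in edgeR (edgeR adjusted p = 0.265).

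Azin2 was not called without PBS tumour 2 (-0.35), 5 (-0.42) or 6 (-0.45), or without anti-CD4 tumour 2 (-0.42), 5 (-0.39) or 6 (-0.38), and its edgeR adjusted p ran from 0.0196 to 0.0878 as tumours were left out in turn. When the log2 library total entered the fit, Azin2 was at -0.24 and was not called. An antisense gene, Gm15904, lies within Azin2 on the opposite strand.

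The path from ornithine to proline and glutamate was covered by 8 genes, all tested and 0 called by edgeR (2 at an unadjusted p under 0.05, 1 by DESeq2, 2 by limma voom), with a median of 0.07. Prodh, proline dehydrogenase, had a log2 fold change of -0.29 (edgeR adjusted p = 0.0981), and Aldh4a1, the next enzyme of proline breakdown, had 0.19 (edgeR adjusted p = 0.174). Of 5 creatine genes, all tested, 0 were called by edgeR (1 at an unadjusted p under 0.05, 1 by DESeq2 and 1 by limma voom), with a median of 0.11. Gatm, which moves the amidino group of arginine to glycine, was at 93.0 to 188.4 CPM with PBS and 59.7 to 109.8 CPM with anti-CD4, and its value of -0.68 (SE 0.20, edgeR adjusted p = 0.0607) did not pass edgeR's test with all tumours. Gatm was the gene that DESeq2 and limma voom called, and edgeR called it without PBS tumour 4 (-0.77). That tumour had the lowest PBS level of Gatm, 93.0 CPM, so leaving it out had to lower the value. Gamt, the following enzyme, had 0.16 (edgeR adjusted p = 0.374).

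Arginine methylation, with 8 of 9 methyltransferases tested, had 0 called by edgeR (0 at an unadjusted p under 0.05, 0 by DESeq2, 2 by limma voom) and a median of 0.09. Prmt2 had 0.15 (edgeR adjusted p = 0.200) and Carm1 had 0.12 (edgeR adjusted p = 0.203). Genes of arginine sensing and of the amino acid starvation response, 9 of 9 tested, had 0 called by edgeR, at an unadjusted p under 0.05, or by the other tools, and a median of -0.01. Ddit3 and Trib3, which that response induces, had -0.25 (edgeR adjusted p = 0.291) and -0.19 (edgeR adjusted p = 0.417).

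Among 24 inducers and regulators of Arg1 and Nos2, 22 were tested, and edgeR called 0 higher and 1 lower (7 at an unadjusted p under 0.05, 3 called by DESeq2 and 7 by limma voom), with a median of -0.09. Irf8, a transcription factor of monocytes and dendritic cells, fell from 53.2 ± 8.61 CPM, with a range of 43.5 to 66.8, to 30.7 ± 8.56 CPM, with a range of 23.4 to 45.3 (SD, n = 6 each). The ranges overlapped slightly, and the value was -0.80 on the log2 scale (SE 0.17, edgeR adjusted p = 0.0288). Irf8 lies inside the long annotated gene Gm20388 on the same strand, which rose from 98.9 ± 20.4 to 159.0 ± 17.1 CPM (SD, n = 6 each, edgeR adjusted p = 0.0177). Whether transcripts of the 2 share sequence was not examined, so the division of reads between them is uncertain. Dendritic cell markers, given above, moved in the same direction as Irf8, and their part was not tested.

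Irf8 was not called without PBS tumour 2 (-0.78) or 6 (-0.72), or without anti-CD4 tumour 2 (-0.75), 5 (-0.73) or 6 (-0.73), and its edgeR adjusted p ran from 0.00432 to 0.0714 as tumours were left out in turn. Tnf, a cytokine that induces Nos2, had a log2 fold change of -0.61 (edgeR adjusted p = 0.0805). Ifng, the main inducer of Nos2, had -1.71 (edgeR adjusted p = 0.099) at very low levels, of 0.0871 to 0.734 CPM with PBS and 0.0170 to 0.318 CPM with anti-CD4. Il4, an inducer of Arg1, was also low, at 0.639 to 1.55 CPM with PBS and 1.38 to 1.87 CPM with anti-CD4, with 0.31 (edgeR adjusted p = 0.333). None of these 3 cytokine genes passed edgeR's test with all tumours. DESeq2 and limma voom called Tnf, as did edgeR without PBS tumour 4 (-0.75). That tumour had the lowest PBS level of Tnf, 2.09 CPM, so leaving it out had to lower the value. Limma voom called Ifng, as did edgeR without both anti-CD4 tumours 3 and 4. Tumour 4 had the highest Ifng of the anti-CD4 group, 0.318 CPM, so nothing is read from that edgeR call. Stat6 had 0.11 (edgeR adjusted p = 0.113) and was called by DESeq2 and limma voom. Cebpb had -0.78 (SE 0.28, edgeR adjusted p = 0.103), Pparg had -0.28 (edgeR adjusted p = 0.134) and Irf1 had -0.38 (edgeR adjusted p = 0.330). Limma voom called each of them. EdgeR called Stat6 and Pparg without PBS tumour 1, and Cebpb without anti-CD4 tumour 1. Of the 22 tested regulators, 8 had values above 0 and 14 below.

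The genes most like Arg1 across the 12 tumours, by Pearson's r of log2 CPM after subtraction of group means among 12570 genes, were Slc17a5 (0.93), Cp (0.88), Hfe (0.87), Pdgfc (0.87) and Ms4a4a (0.87). Without PBS tumour 2 and anti-CD4 tumour 3 the same values were 0.77, 0.58, 0.47, 0.68 and 0.48. PBS tumour 2 had the highest PBS level of all 5 genes, such as 284.0 CPM of Cp, ceruloplasmin, against 171.0 to 210.1 CPM in the other PBS tumours. The genes most like Nos2 were Pank1 (0.95), Atp5j (0.91), Washc2 (0.90), Ccl12 (0.89) and Crlf3 (0.88). Without the tumours farthest from the median of Nos2, they were 0.92, 0.85, 0.83, 0.83 and 0.80. These values were the highest of many, share libraries, and are given as descriptions.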

How the data were processed

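Per the labels, total RNA of 12 tumours went through globin and ribosomal depletion before paired 100-base NovaSeq sequencing. The submitters' processing notes name kallisto, without a version, beside bcl2fastq 2.20.0.422 and the build GRCm38.p6. For each gene symbol the authors deposited an estimated count, and 35.7% to 37.9% of a tumour's values were fractions of a read. How transcripts were summed, the strand setting and the annotation release were not given in the sources used here. Names of 26 rows had become dates and held 0.227% of counts. Reads of similar or overlapping genes are divided by estimation.

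Groups came from the treatment labels. Counts were rounded, filtered with filterByExpr, scaled by TMM and tested with the quasi-likelihood F test of edgeR 4.0.16 (R 4.3.3) over 17940 genes, with robust estimates and no covariate. A call means a p under 0.05 after Benjamini-Hochberg adjustment. An approximate SE was taken by dividing the log2 fold change by the root of F, and the biological coefficient of variation was 0.193. Tumours of 1 group were not copies of each other, with a chi-square per degree of freedom of 8.01 to 61.1 over 30 pairs. Relations used log2 CPM (prior count 2), group means subtracted and 100000 permutations within groups.

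The genes and lists were chosen with earlier results of these data known. All 10 genes are named, together with the called genes and the 2 genes of smallest p in each pathway list, and the 5 genes most like Arg1 or Nos2 (mean log2 CPM at least 1, no numbered gene models or pseudogenes). Nos1, Nos3, Ifng, Il4, Mrc1, Chil3, Cps1, Otc, Nags, genes that overlap or share sequence with a named gene, Cd4, Msln, Pdpn, Cd163, Retnla, Ccl17, Clec10a and Ccl24 are outside that rule and were named after their values were seen. The same holds for Lyz2, Stat6, Cebpb, Pparg, Irf1, Azin1, Oaz1, Eif5a, Csf3r, Cxcr2, Col1a1, Col1a2, Col3a1, Lum and Pdgfra. Genes and stretches came from GENCODE M21, transcripts were aligned with Biopython 1.88, and shared stretches were sought on both strands. The sequence comparison of the transporters is not reported here. Alternatives were RLE and upper quartile scaling, DESeq2 1.42.0, voom with sample weights in limma 3.58.1, leaving out the filter, asking for 1 CPM in 6 tumours, a replicate block, covariates for the library total or for muscle and adipocyte scores, library sizes without mitochondrial and haemoglobin genes, prior counts of 0.5 and 10, and leaving out tumours.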

Additional observations from a re-analysis of the deposited data

Results flagged for a closer look

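Single tumours stood apart from the other 5 of their group in 4 of the 20 combinations of gene and group tested by Dixon's criterion, which chance alone meets in about 1 of 20. PBS tumour 2 did so for Slc7a2, at 69.3 CPM, and for Arg1, at 124.2 CPM. Anti-CD4 tumour 3 did so for Arg1, at 19.9 CPM, the highest of its group. PBS tumour 6 did so for Odc1, at 198.8 CPM, the lowest of its group.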

How the results depend on the processing

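In this section all values come from edgeR unless another tool is named, and the cause of a change was not tested. The 1 call among the 10 genes became 2 (Arg1 and Odc1) with DESeq2, 5 (Slc7a2, Arg1, Arg2, Odc1 and Oat) with limma voom, 3 (Ass1, Arg1 and Arg2) without both anti-CD4 tumours 3 and 4, and 0 with no filter, the library total, or muscle and adipocyte scores as covariates. The count was 0 to 1 when single tumours were left out. Anti-CD4 tumours 3 and 4 had the highest anti-CD4 values of Ass1 and Arg2, so nothing is read from the calls of these genes without them. The log2 fold change of Arg1 stayed below 0 in all settings but was not called with no filter (-2.11), the library total (-1.96) or the muscle and adipocyte scores (-2.59), and ran from -2.38 to -1.55 without single tumours.

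Pathway calls, 2 in the report, numbered 10 with DESeq2, 21 with limma voom, 7 without both tumours, 0 with the library total and 1 with muscle and adipocyte scores, and 0 to 8 without single tumours. Calls over all genes, 947 (529 higher and 418 lower), numbered 504 with upper quartile scaling, 2494 with DESeq2, 6048 with limma voom, 523 with no filter, 5 with the library total, 26 with muscle and adipocyte scores and 62 to 2640 without single tumours.

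Over all genes, the higher calls numbered 179 with upper quartile scaling, 1337 with DESeq2, 2848 with limma voom, 272 with no filter, 0 with the library total, 9 with muscle and adipocyte scores and 29 to 1160 without single tumours. The lower calls numbered 1157 with DESeq2, 3200 with limma voom, 251 with no filter, 5 with the library total, 17 with muscle and adipocyte scores, 705 without both tumours and 31 to 1480 without single tumours. Slc7a1 turned to -0.017 with upper quartile scaling and -0.034 with the library total, Asl to 0.0015 without both tumours, and Nos2 ran from -0.18 to 0.10 without single tumours. With the library total, pathway genes named in the report that moved by over 1.5 times were Slc25a13 (0.0093), Slc38a9 (-0.046), Azin2 (-0.24), Prodh (-0.15), Aldh4a1 (0.12), Gamt (0.014), Carm1 (0.017), Ddit3 (-0.069) and Trib3 (-0.37). Relations of Arg1 with the other genes that passed numbered 0 to 1 without single tumours.

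Replicate numbers were tried as a block. Same-numbered tumours correlated from -0.41 to 0.23, 0 of 6 PBS tumours correlated best with their own number, and the labels do not say what a number stands for. With the replicate block, 0 of the 10 genes, 0 pathway genes and 33 genes over all (19 higher, 14 lower, and 4237 at an unadjusted p under 0.05) were called, and the log2 fold change of Arg1 was -1.92. Azin2 and Irf8 were not called with the block, at -0.41 and -0.82, against -0.42 and -0.80 without it. At levels under 2 CPM, as for Ifng and Il4, counting error limits what can be seen.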
